A study of Mus musculus with 15 samples.

Results

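Transcripts of 10 genes of muscle protein breakdown were followed in the plantaris, a hindlimb muscle, of trained, detrained and untrained mice. The genes are the ubiquitin ligase genes Fbxo32, Trim63, Fbxo30, Fbxo21 and Fbxo31, the transcription factor genes Foxo1 and Foxo3, the mitophagy gene Bnip3 and the autophagosome genes Map1lc3b and Gabarapl1. They were chosen by symbol from the 20406 genes listed in the count table, and all 10 were found and passed the filter on low counts. Samples were 15 RNA-seq libraries from male HSA-GFP mice, in which the human skeletal actin promoter drives a reverse tetracycline transactivator that switches on a fluorescent histone 2B in the nuclei of muscle fibres. Every group carried this labelling system. Groups of 3 libraries each were 9M_PoW+DT (8 weeks of training followed by 12 weeks of detraining, 9 months old), 9M_UT (untrained, 9 months old), 6M_POW_LD (6 months old, given in the titles as replicates 4 to 6 of the trained group under LD identifiers), 6M_PoW (trained for 8 weeks, 6 months old) and 6M_UT (untrained, 6 months old). Training was progressive weighted wheel running (PoWeR), voluntary running against a rising load, begun at 4 months of age. The labels used here do not say what LD stands for.

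The groups follow the sample titles, and the treatment field of the labels went against the titles in all 6 libraries of 9 months and in the 3 LD libraries, which it called sedentary. Each direction below that uses those libraries therefore rests on the titles. The identifiers in the titles run in separate series for the 6-month, 9-month and LD libraries, so that series cannot be told apart from age or from LD. Nothing in the labels says that replicates came from separate mice, so the p-values below reflect no more than the spread among these libraries, which may be technical. Library totals ran from 18865000 to 27688800 expected counts, to 6 digits. Muscle fibre markers were abundant in every library, with 9 markers summing to 107488 to 142946 CPM (counts scaled to library size), and the lowest count of any of the 10 genes in a library was 270.

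Muscle loses mass when protein breakdown outpaces synthesis, and most myofibrillar protein is degraded by the ubiquitin-proteasome system, in which ligases choose the substrate. FoxO transcription factors switch on ligase and autophagy genes when insulin and growth factor signalling is low; when it is high, the kinase Akt phosphorylates FoxO proteins and keeps them out of the nucleus. Fbxo32 (atrogin-1) and Trim63 (MuRF1) are the ligase genes best known for their induction in fasting, disuse, denervation and glucocorticoid excess. Autophagy delivers organelles and aggregates to lysosomes, and its selective form for mitochondria is mitophagy. Only transcripts were measured here, so FoxO phosphorylation and the rate of degradation were not.

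FoxO proteins bind the core motif GTAAACA and the related motif CAAAACA, and both were searched on both strands in the promoters, taken as 250 bases before and 50 after the start of each gene (RefSeq, GRCm38.p6). Of the 10 genes, 9 had a promoter in the table. GTAAACA, read as TGTTTAC on the other strand, was in 3.65% of the 32851 promoters in the table, and CAAAACA, read as TGTTTTG, in 6.28%. The only match among the 9 was in the promoter of Trim63, where TGTTTAC began 194 bases before the start. That promoter (chr4:134314870-134315169, plus strand) is shown with the motif in capitals, beside those of Bnip3 (chr7:138909457-138909756, minus strand) and Fbxo21 (chr5:117976520-117976819, plus strand), the pair of genes that passed the test in a comparison below.
Trim63: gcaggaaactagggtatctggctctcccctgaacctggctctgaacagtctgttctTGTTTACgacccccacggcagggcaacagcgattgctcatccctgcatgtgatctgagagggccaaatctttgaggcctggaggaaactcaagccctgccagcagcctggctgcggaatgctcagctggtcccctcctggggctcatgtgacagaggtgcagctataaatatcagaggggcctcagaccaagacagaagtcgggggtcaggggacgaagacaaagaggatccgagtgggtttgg
Bnip3: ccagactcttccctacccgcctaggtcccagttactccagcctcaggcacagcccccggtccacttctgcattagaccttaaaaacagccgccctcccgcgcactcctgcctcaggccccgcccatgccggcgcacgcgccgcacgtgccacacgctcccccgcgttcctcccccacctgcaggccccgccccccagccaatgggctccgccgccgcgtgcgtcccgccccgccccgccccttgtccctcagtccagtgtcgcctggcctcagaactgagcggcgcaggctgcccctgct
Fbxo21: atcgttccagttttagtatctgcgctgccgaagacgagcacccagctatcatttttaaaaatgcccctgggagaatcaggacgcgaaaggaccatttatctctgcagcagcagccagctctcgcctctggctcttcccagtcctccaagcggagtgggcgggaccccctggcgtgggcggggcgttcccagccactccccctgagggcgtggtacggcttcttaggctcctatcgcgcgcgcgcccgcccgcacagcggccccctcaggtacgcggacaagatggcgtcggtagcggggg
The Trim63 promoter was 57.0% G and C, against 71.7% for Bnip3 and 63.7% for Fbxo21. A match is a description of the letters and does not show binding.

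Per kilobase of exon, the 10 genes fell into a high, a middle and a low tier. Exon length was the union of exons over all GENCODE M21 transcripts of a gene, which need not be the annotation used for counting. For Map1lc3b that union was 7517 bases of a span of 8400, so its level per kb and its tier depend on this choice. Fbxo32 had a median of 101 CPM per kb over the 15 libraries, Bnip3 91.8 and Trim63 85.1. The ranges of these 3 over libraries overlapped, from 45.9 to 240 CPM per kb for Fbxo32, 74.8 to 124 for Bnip3 and 48.0 to 450 for Trim63, and all lay above that of Fbxo31. Fbxo31 had a median of 31.3 CPM per kb, Gabarapl1 29.5 and Map1lc3b 15.9, where the range of Gabarapl1 (16.2 to 56.8) overlapped both others and reached into the high tier. The low tier held Foxo3 at 4.81, Fbxo30 at 4.45, Fbxo21 at 2.91 and Foxo1 at 2.67 CPM per kb, and these 4 ranges overlapped, with the highest library of Foxo1, at 17.1, inside the ranges of Map1lc3b (14.4 to 19.5) and Gabarapl1. Values below are levels in CPM, which compare libraries and not genes.

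Fbxo32 (mm10, chromosome 15, 58175879 to 58214932, minus strand) encodes atrogin-1, the substrate-binding F-box subunit of a muscle ligase. At 9 months it stood at 386, 588 and 880 CPM in detrained muscle and at 603, 1118 and 1229 CPM in untrained muscle. At 6 months it stood at 393, 320 and 357 CPM in the LD libraries, at 834, 705 and 1380 CPM in trained muscle and at 1671, 377 and 1197 CPM in untrained muscle. The LD libraries were the 3 closest together and lay below every trained library, while 1 untrained library of 6 months, replicate 2, sat among them. An antisense gene, Gm15943, overlaps Fbxo32, and the sources do not say whether counting used the strand.

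Trim63 (chromosome 4, 134315120 to 134329629, plus strand) encodes MuRF1, a RING-finger ligase that binds the sarcomere and ubiquitinates thick-filament proteins. It stood at 161, 277 and 482 CPM in detrained muscle, against 202, 541 and 604 CPM in untrained muscle at 9 months. At 6 months the values were 242, 136 and 218 CPM in the LD libraries, 219, 212 and 469 CPM in trained muscle, against 1278, 151 and 330 CPM in untrained muscle. All groups overlapped, and replicate 1 of 6M_UT stood at more than any other library. Its highest library held 9.37 times its lowest, the widest range of the 10 genes.

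The other 3 ligase genes varied less. Fbxo30 (chromosome 10, 11281330 to 11298052, plus strand) encodes MUSA1, an F-box protein that BMP signalling holds down in muscle. It stood at 16.8, 23.2 and 18.8 CPM in detrained muscle and 23.0, 26.7 and 28.6 CPM in untrained muscle at 9 months, with 1 detrained library inside the untrained range. Its 9 libraries of 6 months ran from 18.2 to 27.6 CPM. Fbxo21 (chromosome 5, 117976730 to 118010201, plus strand) encodes SMART, an F-box protein needed for full atrophy after denervation in mice. It stood at 11.6, 10.3 and 12.6 CPM in the LD libraries, 16.0, 18.6 and 19.5 CPM in trained muscle and 23.2, 16.1 and 20.9 CPM in untrained muscle of 6 months. The LD libraries were the 3 lowest of all 15 for Fbxo21. Fbxo31 (chromosome 8, 121549440 to 121578806, minus strand) encodes an F-box protein that targets cyclin D1, and its levels ran from 153 to 213 CPM.

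Foxo1 (chromosome 3, 52268336 to 52353221, plus strand) encodes a FoxO factor that stood far higher in a few libraries than in the rest. It had 21.1, 51.6 and 93.7 CPM in detrained muscle and 20.9, 22.5 and 41.3 CPM in untrained muscle at 9 months. At 6 months it had 39.1, 22.3 and 19.3 CPM in the LD libraries, 23.1, 23.1 and 24.6 CPM in trained muscle and 148, 31.8 and 20.4 CPM in untrained muscle. Of the 15 libraries 9 lay between 19.3 and 24.6 CPM, and detrained replicates 2 and 3 and 6M_UT replicate 1 lay above all others. Foxo3 (chromosome 10, 42181841 to 42276755, minus strand), whose product is sufficient to induce atrogin-1 in cultured mouse myotubes, had 24.6, 43.5 and 51.8 CPM in detrained muscle and 31.1, 41.7 and 53.0 CPM in untrained muscle at 9 months. It had 38.2, 26.6 and 31.7 CPM in the LD libraries, 29.8, 31.9 and 36.4 CPM in trained muscle and 75.4, 29.6 and 38.5 CPM in untrained muscle at 6 months. All 5 groups overlapped for both factors.

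Bnip3 (chromosome 7, 138890836 to 138909519, minus strand) encodes an outer mitochondrial membrane receptor that ties mitochondria to forming autophagosomes. It stood at 186, 205 and 197 CPM in detrained muscle, against 195, 252 and 280 CPM in untrained muscle at 9 months. At 6 months it stood at 186, 169 and 189 CPM in the LD libraries, 219, 208 and 247 CPM in trained muscle, against 272, 221 and 260 CPM in untrained muscle. The LD libraries lay below every other library of 6 months. Gabarapl1 (chromosome 6, 129533160 to 129542346, plus strand), a gene of the ATG8 family whose products are joined to lipid on the autophagosome, had 39.4, 53.8 and 59.4 CPM in detrained muscle and 61.4, 72.3 and 114 CPM in untrained muscle at 9 months. It had 41.1, 32.6 and 44.0 CPM in the LD libraries, 59.3, 62.7 and 93.3 CPM in trained muscle and 89.2, 48.2 and 65.8 CPM in untrained muscle at 6 months. Detrained libraries lay below untrained ones at 9 months, and LD libraries below both other groups at 6 months. Map1lc3b (chromosome 8, 121590361 to 121598760, plus strand) encodes LC3B, another ATG8 protein, and ran from 108 to 147 CPM with the LD libraries between 114 and 115 CPM. Map1lc3b overlaps Zcchc14 and, as does Fbxo31, the predicted gene Gm20388, while predicted genes also overlap Foxo1, Bnip3 and Gabarapl1, so these levels are uncertain where reads could be split.

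**Figure D1:**
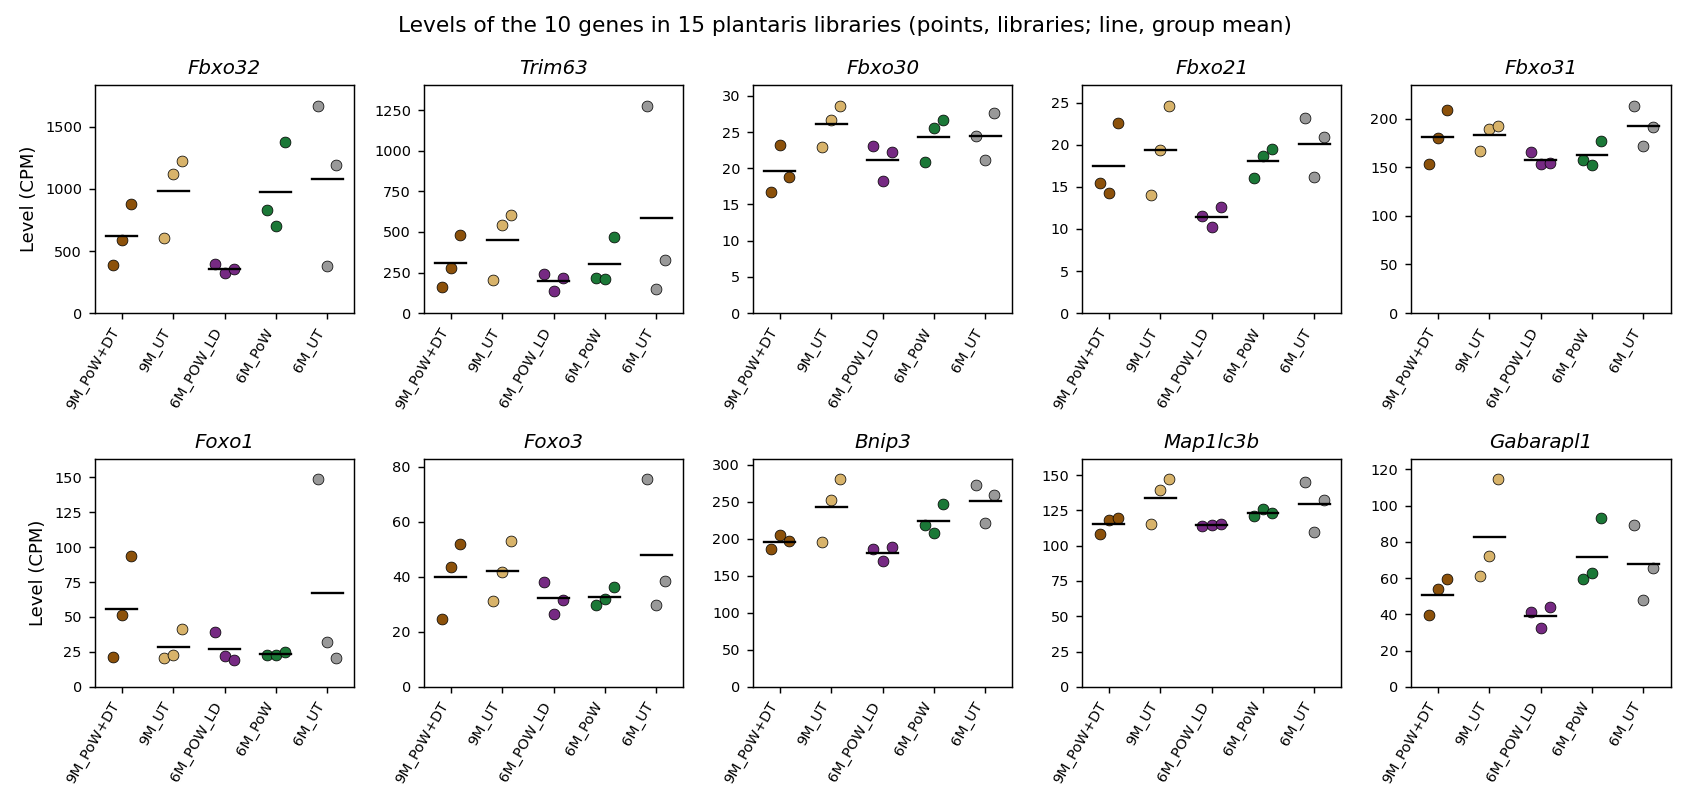
Level of each of the 10 genes (vertical axes, CPM, from 0) in each of 15 plantaris libraries, by group along the horizontal axis; points are libraries and the line is the mean of 3. The 3 LD libraries sit close together and low for Fbxo32, Fbxo21, Bnip3 and Gabarapl1, and 1 library of 6M_UT stands apart for Trim63, Foxo1 and Foxo3, at 1278, 148 and 75.4 CPM.

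Replicates of one group differed strongly for some of the 10 genes and hardly for others. Trim63 differed 8.44-fold between the highest and lowest library of 6M_UT, Foxo1 7.27-fold, Fbxo32 4.43-fold and Foxo3 2.55-fold. In detrained muscle, Foxo1 differed 4.44-fold between replicates. The within-group standard deviation (SD) of log2 CPM, pooled over the 5 groups, was 0.94 for Trim63, above that of 99.7% of the 9641 genes with a mean log2 CPM of at least 2. It was 0.89 for Foxo1 (99.6%), 0.67 for Fbxo32 (99.0%), 0.45 for Foxo3 (96.5%) and 0.37 for Gabarapl1 (93.5%). Without 6M_UT replicate 1 the SDs were 0.72 for Trim63, 0.64 for Foxo1, 0.60 for Fbxo32 and 0.36 for Foxo3, above those of 94.3% to 99.4% of genes. Map1lc3b and Fbxo31 were steady between replicates, with SDs of 0.13 and 0.14 that exceeded those of 33.1% and 40.3% of genes.

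The 10 genes varied together across libraries. In 6M_UT replicate 1 all 10 stood above their own mean over the 15 libraries, by 0.86 log2 units on average, and the same held for 9M_UT replicate 3, at 0.53. In 9M_PoW+DT replicate 1 and in LD replicates 5 and 6 none stood above its mean, with averages of -0.47, -0.58 and -0.37. The first principal component of the 10 genes' log2 levels, centred but not scaled, held 75.0% of their variance. Genes of wide spread weigh most in that share, with within-group SDs of 0.94 for Trim63 and 0.13 for Map1lc3b. Of the 10 highest values, 5 belonged to 6M_UT replicate 1 and 5 to 9M_UT replicate 3.

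**Figure D2:**
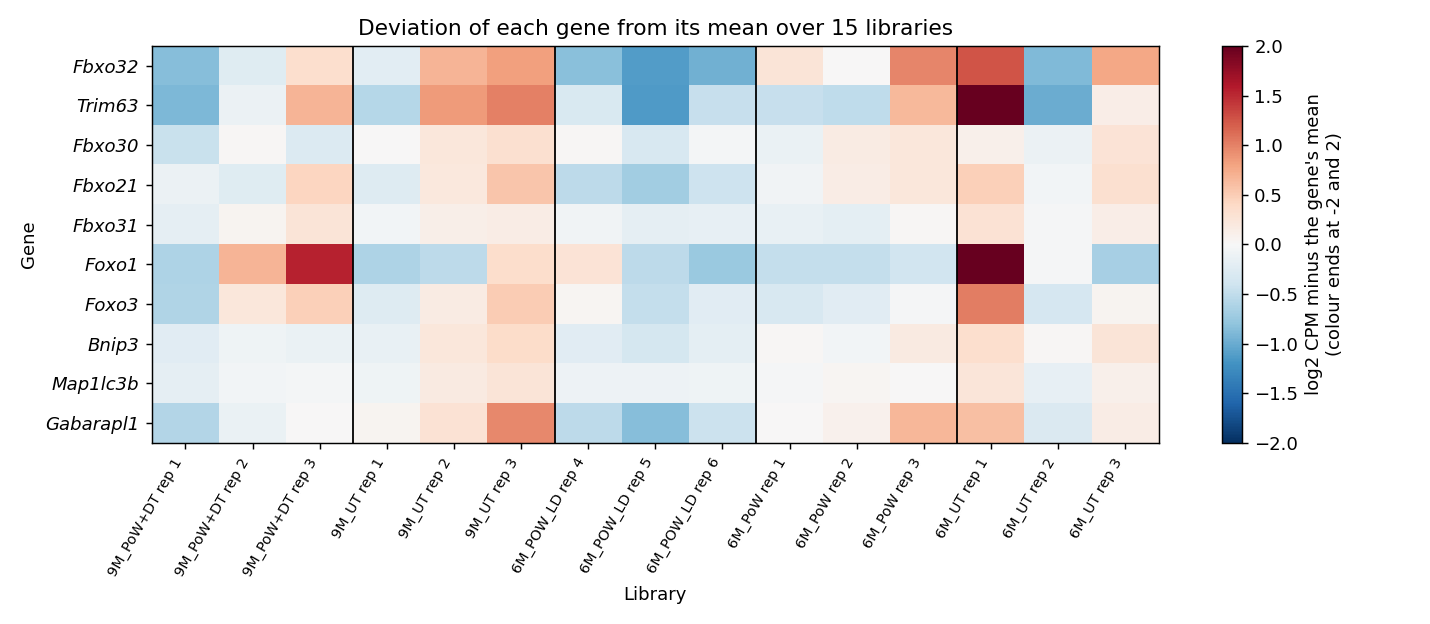
Difference of each gene's log2 CPM from its own mean over 15 libraries (colour, log2 units), with genes in rows and libraries in columns by group. Columns tend to be of one colour, with 6M_UT replicate 1 and 9M_UT replicate 3 above the mean for all 10 genes and 9M_PoW+DT replicate 1 and LD replicates 5 and 6 above it for none.

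All 45 pairs of the 10 genes had a Pearson r above 0 over the 15 libraries, with a median of 0.743. Of these, 36 passed a two-sided permutation test (100000 resamples, adjusted over the 45 pairs), and 37 passed with Spearman's rho. After the group means were removed and values permuted within groups, 34 passed and all 45 stayed above 0, with a median r of 0.773. Among the 6 libraries with PoW identifiers 44 pairs lay above 0 (median r 0.741), and among the 6 of 9 months 43 did (median r 0.761); the 3 LD libraries were too few for a value. Without 6M_UT replicate 1, left out after its values were seen, 34 pairs passed and the median r was 0.703, and over the 12 libraries without LD 31 pairs passed. Leaving out the 2 libraries farthest from the median of the first gene of each pair gave a median r of 0.678. Pairs of other genes were not tested this way, so whether these values are particular to the 10 genes is not known.

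The closest pair was Trim63 and Foxo3, with r = 0.927 and rho = 0.921 over 15 libraries (two-sided permutation p = 1e-05 for each, the smallest that 100000 resamples can give; adjusted p = 0.000112 and 0.000225). It stood at r = 0.835 without the 2 farthest libraries, 0.951 within the PoW identifiers and 0.895 within the 9-month ones. Fbxo32 and Gabarapl1 had r = 0.914 and rho = 0.925 (permutation p = 1e-05 for each, adjusted p = 0.000112 and 0.000225), with r = 0.890 without the 2 farthest libraries, 0.913 within the PoW identifiers and 0.892 within the 9-month ones. The ligase pair Fbxo32 and Trim63 had r = 0.863 and rho = 0.857 (permutation p = 4e-05 and 8e-05, adjusted p = 0.000257 and 0.000506), with r = 0.819 without the 2 farthest, 0.871 within the PoW identifiers and 0.966 within the 9-month ones. Of the 9 pairs that did not pass, 6 held Foxo1, which has 9 pairs in all, and the other 3 joined Fbxo30 with Fbxo31, Foxo3 and Fbxo21. Foxo1 and Foxo3 did covary, with r = 0.841 and rho = 0.632 (permutation p = 0.00017 and 0.0139, adjusted p = 0.000546 and 0.0190), and r = 0.611 without the 2 farthest, 0.899 within the PoW identifiers and 0.752 within the 9-month ones. Foxo1 and Fbxo30 had the lowest r, 0.00163 (permutation p = 0.995), with rho = 0.146 (permutation p = 0.602).

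**Figure D3:**
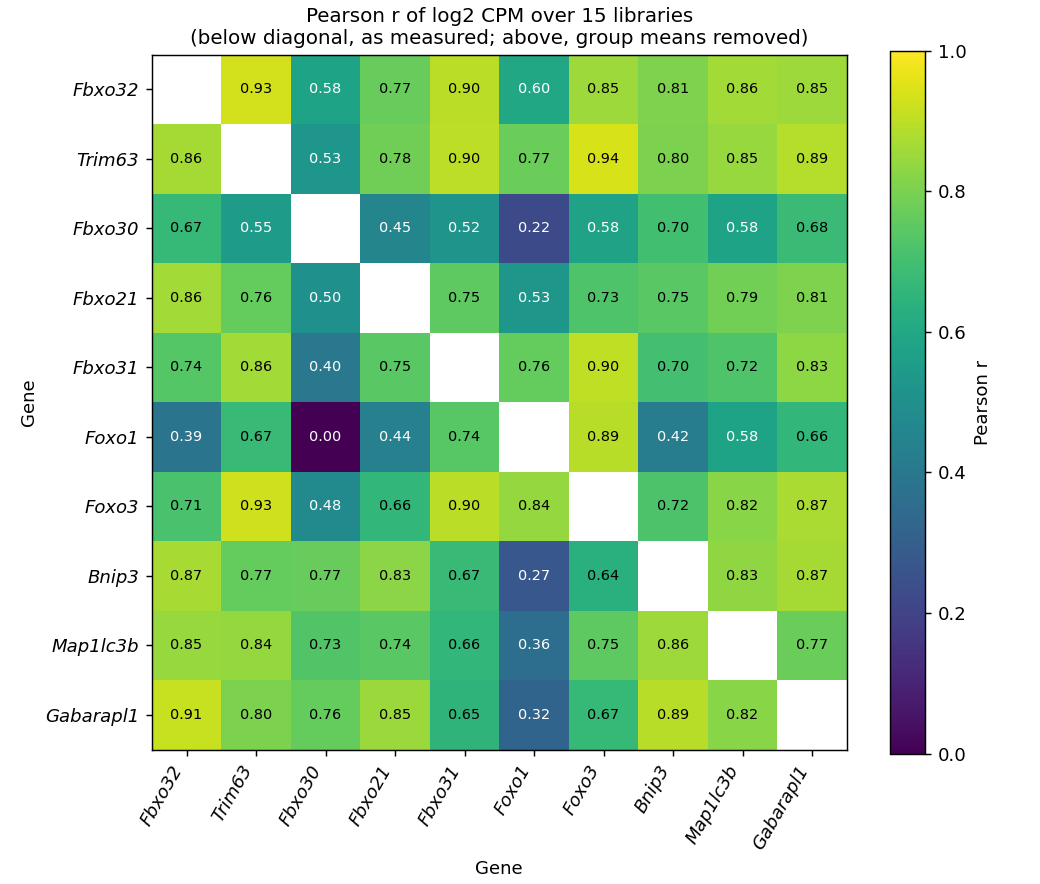
Pearson r of log2 CPM over 15 libraries for each pair of the 10 genes (colour and printed value), as measured below the diagonal and with group means removed above it. All values lie above 0, those of Foxo1 and Fbxo30 with most partners are the lowest, and Trim63 with Foxo3 reaches 0.927.

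Likeness was measured against the 9724 tested genes whose average log2 CPM reached 2. The genes most like each of the 10 over the 15 libraries were found by Pearson r of log2 CPM, given as a description. Most like Trim63 were Sesn1 (r = 0.962), a stress-induced sestrin and known FoxO target, and Syne1 (0.958), a nuclear envelope spectrin-repeat gene. Most like Foxo3 were Klf15 (0.962), a transcription factor induced by glucocorticoids, and Plin4 (0.958), a lipid droplet gene. Fbxo32 was closest to Ddi2 (0.940), a protease gene, and Klhl38 (0.939), and Gabarapl1 to Ddi2 (0.949) and Mafk (0.931). For Bnip3 they were Pik3ip1 (0.923), whose product inhibits PI3 kinase, and Zwint (0.920), and for Map1lc3b they were Sesn1 (0.914) and Tmem140 (0.913). Foxo1 was closest to Mast2 (0.939) and Cep85l (0.938), Fbxo31 to Rbm39 (0.954) and Sar1a (0.941), Fbxo21 to Clip1 (0.927) and Zfand5 (0.925), and Fbxo30 to Nol8 (0.859).

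Levels of other genes that respond to the same hormones differed between replicates too. The 10 glucocorticoid response genes, such as Fkbp5 and Zbtb16, had a mean log2 CPM of 4.77 to 6.31 in detrained and 5.56 to 6.43 in untrained muscle at 9 months. At 6 months it was 5.07 to 6.14 in the LD libraries, 5.49 to 5.83 in trained and 5.36 to 7.16 in untrained muscle, with the highest value in 6M_UT replicate 1. Other FoxO targets, 19 genes such as Pdk4 and Sesn1, had a mean log2 CPM of 4.72 to 5.69 in detrained and 5.26 to 6.05 in untrained muscle at 9 months. At 6 months they had 4.89 to 5.38 in the LD libraries, 5.29 to 5.61 in trained and 5.02 to 6.09 in untrained muscle. For both lists the highest library was 6M_UT replicate 1 and the lowest was 9M_PoW+DT replicate 1. The part of these responses in the spread of the 10 genes was not tested.

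The trained and untrained groups of 6 months address whether breakdown genes were set differently at the end of a growth stimulus. None of the 10 genes passed at an adjusted p under 0.05 in edgeR's quasi-likelihood test, where 0% of the 14919 genes tested did, and none did in DESeq2 or limma-voom. At an unadjusted p under 0.05 there was 1, against 9.75% of all genes. That was Fbxo31, at 162 ± 13.2 CPM in trained muscle and 192 ± 20.9 CPM in untrained muscle (SD, n = 3 each), which is a difference of -0.24 ± 0.11 log2 units (SE; edgeR adjusted p = 0.499). Log2 fold changes lay below 0 for 9 of the 10, with a median of -0.16, where all genes had a median of 0.00129. No gene of the 10 had groups that did not overlap, which 16.2% of all genes had. Trim63 stood at -0.97 ± 0.83 and Foxo1 at -1.50 ± 0.80, and both rest on 6M_UT replicate 1. Without it Trim63 stood at 0.32, Fbxo32 at 0.31, Foxo1 at -0.15 and the median of the 10 at -0.016.

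Around the 10 genes, no gene of the ubiquitin, proteasome, FoxO, autophagy or lysosome lists passed in the training comparison. All 9 mitophagy genes tested lay below 0, with a median of -0.11. Pink1, the kinase that marks damaged mitochondria, averaged 688 CPM in trained muscle, against 817 CPM in untrained muscle (edgeR adjusted p = 0.257). Bnip3l, a relative of Bnip3, averaged 51.6 and 60.2 CPM (edgeR adjusted p = 0.426). These 2 of the 9 had an unadjusted p under 0.05, as did 9.75% of all genes. Of 31 proteasome subunit genes, 26 lay below 0 with a median of -0.049. Without 6M_PoW replicate 2, 19 did, with a median of -0.0089. An unadjusted p under 0.05 was found for 2 of the 31, against 9.75% of all genes, Psma1 at 0.26 and Psmd8 at -0.26. Of 19 other ligase genes the muscle-specific Fbxo40 had the smallest p, at 447 CPM in trained muscle, against 562 CPM in untrained muscle (-0.33 ± 0.08, edgeR adjusted p = 0.205). It was the 1 ligase gene lower at an unadjusted p under 0.05, while 2 were higher, among them Mdm2, which had the next smallest p. Of the 19, 12 lay below 0 and 7 above. The 10 glucocorticoid response genes had a median of -0.60, with none at an unadjusted p under 0.05. That median rests on 6M_UT replicate 1, without which it was -0.023 with 5 of the 10 below 0. The mean log2 CPM of the list was 7.16 in that library, against 5.36 and 5.66 in replicates 2 and 3 and 5.49 to 5.83 in trained muscle, and Zbtb16 stood at 56.1 ± 8.26 CPM in trained muscle, against 122 ± 122 CPM in untrained muscle.

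Detrained was compared with untrained muscle at 9 months to ask whether the genes differed 12 weeks after training ended. No gene of the 10 passed in edgeR, where 0.0201% of all genes did, and none did in DESeq2 or limma-voom. The unadjusted p was under 0.05 for 2, against 6.52% of all genes. Fbxo30 averaged 19.6 ± 3.30 CPM in detrained muscle and 26.1 ± 2.89 CPM in untrained muscle (SD, n = 3 each), which is a difference of -0.41 ± 0.14 log2 units (edgeR adjusted p = 0.646). Bnip3 averaged 196 ± 9.47 CPM in detrained muscle and 243 ± 43.2 CPM in untrained muscle, at -0.31 ± 0.12 (edgeR adjusted p = 0.692). Gabarapl1 was the only gene of the 10 with every detrained library below every untrained one, which held for 5.70% of all genes, at -0.70 ± 0.32 (edgeR adjusted p = 0.759). Of the 10, 9 lay below 0, with a median of -0.26, where the median of all genes was 0.00479. Without 9M_UT replicate 3 the median was -0.17, 6 of the 10 lay below 0, and Fbxo21 stood at 0.061, Fbxo31 at 0.024 and Foxo3 at 0.14. Foxo1 lay above 0, at 0.97 ± 0.79, and at 0.36 without 9M_PoW+DT replicate 3.

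No gene of the ubiquitin, proteasome, FoxO, autophagy, mitophagy or lysosome lists passed in that comparison either. Among other FoxO targets 16 of 19 lay below 0 with a median of -0.41, and 2 had an unadjusted p under 0.05, against 6.52% of all genes. These were Irs2, an insulin receptor substrate, at 39.4 CPM in detrained muscle, against 122 CPM in untrained muscle (-1.63 ± 0.33, edgeR adjusted p = 0.575), and the insulin receptor gene Insr at 104 and 124 CPM (-0.25 ± 0.09, adjusted p = 0.646). The ligase genes Mul1 and Fbxo9 stood higher, at 42.1 CPM in detrained against 34.2 CPM in untrained muscle and at 51.8 against 41.8 CPM (edgeR adjusted p = 0.576 and 0.646). Of 20 immediate early genes, the stimulus-response genes Nr4a2 and Fosl2 passed, both lower in detrained muscle, at 0.940 CPM against 6.18 CPM in untrained muscle and at 12.4 CPM against 32.6 CPM (edgeR adjusted p = 0.0209 for each). Neither passed in limma-voom, which called 0 genes there (adjusted p = 0.0795 for each), nor without 6M_PoW replicate 2, 9M_UT replicate 2 or 3 or 9M_PoW+DT replicate 2 or 3, while Nr4a2 was lost without 9M_UT replicate 1 and Fosl2 without 9M_PoW+DT replicate 1. The group that stood apart for the 20 genes was 9M_UT, with a mean log2 CPM of 3.89 to 3.93. That mean was 3.01 to 3.55 in 9M_PoW+DT, 3.19 to 3.48 in 6M_POW_LD, 2.89 to 3.41 in 6M_PoW and 2.86 to 3.37 in 6M_UT. In untrained mice of 9 against 6 months, 18 of the 20 lay above 0.

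The detraining and training comparisons were also set against each other, as detrained over untrained at 9 months less trained over untrained at 6 months. None of the 10 genes passed in edgeR (0.0268% of all genes did) and none had an unadjusted p under 0.05 (9.48% of all genes did). The closest was Foxo1, whose difference was 2.47 ± 1.13 log2 units (unadjusted p = 0.0583, edgeR adjusted p = 0.555), and 1.12 without 6M_UT replicate 1. In untrained mice of 9 against 6 months, none of the 10 passed (0.0134% of all genes), none had an unadjusted p under 0.05 (6.72%) and none had groups that did not overlap (11.8%). Log2 fold changes with age ran from -1.24 ± 0.79 for Foxo1 to 0.29 ± 0.31 for Gabarapl1, and without 6M_UT replicate 1 Foxo1 stood at 0.11. In detrained mice of 9 months against trained mice of 6 months, where age, identifier series and detraining cannot be told apart, none passed (0.295% of all genes). Fbxo30 had an unadjusted p under 0.05 there (12.7% of all genes), at 19.6 CPM in detrained muscle and 24.3 CPM in trained muscle. Bnip3 and Map1lc3b had every detrained library below every trained one (9.67% of all genes). In the training comparison standard errors ran from 0.10 log2 units for Map1lc3b to 0.83 for Trim63.

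The LD libraries held the lowest mean of any group for 8 of the 10 genes, all but Fbxo30 and Foxo1, and Bnip3 and Fbxo21 passed against untrained muscle. For some of the 8 another group was close. Foxo3 averaged 32.2 CPM in LD and 32.7 CPM in 6M_PoW, Map1lc3b 114.6 CPM in LD and 115.4 CPM in 9M_PoW+DT, and Fbxo31 158 CPM in LD and 162 CPM in 6M_PoW. The 10 genes varied together, and how many of all genes were lowest in LD was not counted. LD libraries were compared with 6M_UT and with 6M_PoW separately, since their titles call them trained and their treatment field calls them sedentary. Bnip3 averaged 181 ± 10.4 CPM in the LD libraries and 251 ± 26.9 CPM in untrained muscle of 6 months (SD, n = 3 each), a log2 fold change of -0.47 ± 0.11 (edgeR adjusted p = 0.0221). Fbxo21 averaged 11.5 ± 1.16 CPM in the LD libraries and 20.1 ± 3.61 CPM in untrained muscle, at -0.81 ± 0.20 (edgeR adjusted p = 0.0335). All 10 genes lay below 0, with a median of -0.68, where all genes had a median of 0.00826. Without 6M_UT replicate 1 the median was -0.24, with Foxo1 at 0.037, Trim63 at -0.28 and Foxo3 at -0.082. In this comparison 4.99% of the 15181 genes tested passed, and 2.83% passed as lower in the LD libraries. At an unadjusted p under 0.05, 5 of the 10 were lower, against 10.3% of all genes, and the other 3 were Fbxo32 at -1.60 ± 0.52, Gabarapl1 at -0.79 ± 0.30 and Fbxo31 at -0.28 ± 0.10 (edgeR adjusted p = 0.119, 0.169 and 0.127). Every LD library lay below every untrained one for Fbxo21, Fbxo31, Bnip3 and Gabarapl1, as for 12.7% of all genes.

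These calls were lost when any 1 of several libraries was left out, while both genes stayed below 0. Without 6M_UT replicate 1, 6M_UT replicate 3, LD replicate 4 or LD replicate 5, none of the 10 passed, and the adjusted p of Bnip3 was 0.0898, 0.0641, 0.0560 and 0.108, with log2 fold changes of -0.41, -0.44, -0.49 and -0.42. Those of Fbxo21 were 0.131, 0.0836, 0.0893 and 0.141, with log2 fold changes of -0.69, -0.78, -0.81 and -0.73. Without LD replicate 6 Bnip3 passed and Fbxo21 did not (edgeR adjusted p = 0.0490 and 0.0668), and without 6M_UT replicate 2 Fbxo32 passed as well, at -2.01 (edgeR adjusted p = 0.0303). DESeq2 called Bnip3, Fbxo21 and Fbxo32 against untrained muscle, with adjusted p = 0.00368, 0.00401 and 0.0122. It called 1164 of 12885 genes there, more than edgeR did. In a test of any difference among the 5 groups, Bnip3 alone of the 10 passed (edgeR adjusted p = 0.0498, where 4.49% of all genes did).

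Against the trained group 6M_PoW, 0 of the 10 passed in edgeR or in limma-voom, where 2.40% of all genes passed in edgeR and 1.12% passed as lower. Unadjusted p-values were under 0.05 for 4, all lower in the LD libraries, against 7.18% of all genes. Fbxo32 averaged 356 ± 36.4 CPM in the LD libraries and 973 ± 359 CPM in trained muscle, at -1.45 ± 0.52 (edgeR adjusted p = 0.219). Fbxo21 stood at -0.66 ± 0.20, Gabarapl1 at -0.87 ± 0.30 and Bnip3 at -0.31 ± 0.11 (edgeR adjusted p = 0.113, 0.184 and 0.174). DESeq2 called Fbxo32 and Fbxo21 in this comparison (adjusted p = 0.0417 and 0.0430), where it called 661 of 12885 genes. A fit of the 9 libraries of 6 months called Fbxo21 (edgeR adjusted p = 0.0345), where it called 316 of 14850 genes. Every LD library lay below every trained one for Fbxo32, Fbxo21, Bnip3, Map1lc3b and Gabarapl1, as for 10.7% of all genes. Foxo1 and Foxo3 did not pass, at 0.19 ± 0.74 and -0.02 ± 0.36. Both LD comparisons use the same LD libraries.

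**Figure D4:**
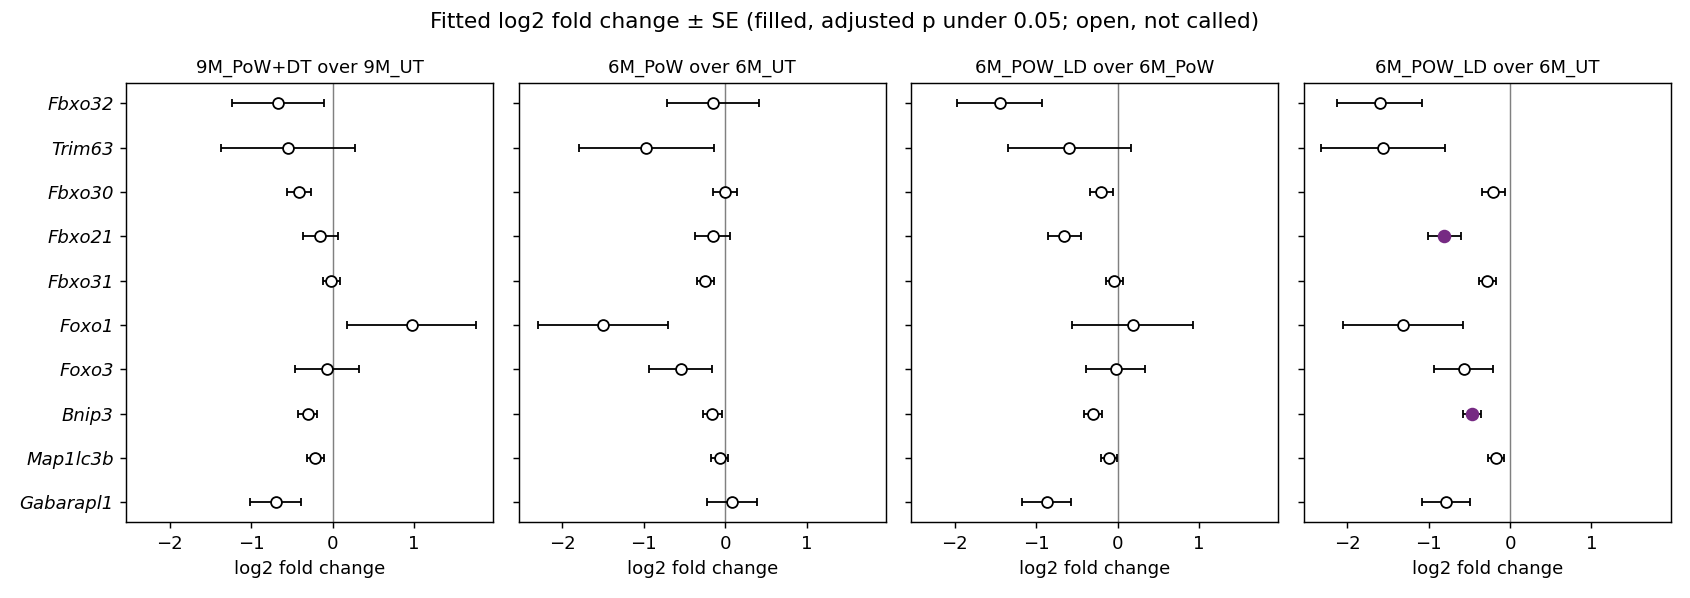
Fitted log2 fold change (horizontal axis) of each of the 10 genes in 4 comparisons, with bars of 1 standard error; filled points have an adjusted p under 0.05. Only Fbxo21 and Bnip3, in the LD libraries over 6M_UT, are filled, at -0.81 and -0.47, and the longest bars are those of Trim63, Foxo1 and Fbxo32.

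Of 31 proteasome subunit genes, 7 passed as lower in the LD libraries than in untrained muscle and none as higher, beside the 2.83% of all genes that passed as lower. Of the 31, 28 lay below 0 with a median log2 fold change of -0.21. At an unadjusted p under 0.05, 18 were lower, against 10.3% of all genes. The 7 were Psmd2 (177 CPM in LD and 233 CPM in untrained muscle, edgeR adjusted p = 0.00659), Psmd4 (81.3 and 116 CPM), Psmd11, Psmd6, Psmd1, Psmc2 and Psma7, genes of the regulatory cap and the core of the proteasome. Their summed level was 2069 to 2223 CPM in the LD libraries, 2249 to 2604 CPM in trained muscle, against 2433 to 2628 CPM in untrained muscle of 6 months, with the LD libraries below all others. Against trained muscle 26 of 31 lay below 0 with a median of -0.11 and Psmd2 passed (-0.32 ± 0.08, edgeR adjusted p = 0.0357), a call that was lost without 6M_PoW replicate 1 or 3 or without LD replicate 5 or 6. Leaving out 1 library moved the count against untrained muscle from 7 to between 1 and 8, with 1 called without 6M_UT replicate 1 or LD replicate 5, 2 without 6M_UT replicate 3 or LD replicate 6 and 3 without LD replicate 4.

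In the other steps of the pathway each list is set beside the 4.99% of all genes that passed in either direction. Of 18 ubiquitin, conjugating enzyme and cullin core genes, 3 passed as lower in LD than in untrained muscle: the ubiquitin gene Ubb (586 and 810 CPM), Ube2d3 (226 and 274 CPM) and Skp1a, the adaptor of F-box ligases (103 and 127 CPM). Of 19 other ligase genes Wwp1 passed, at 281 CPM in LD and 342 CPM in untrained muscle (edgeR adjusted p = 0.0421), which is 5.26% of that list. Of 35 other autophagy genes 2 passed as lower, Tfeb, a master regulator of lysosome genes (48.8 and 76.6 CPM, -0.65 ± 0.09), and the cargo receptor gene Sqstm1 (387 and 576 CPM, -0.57 ± 0.15), which is 5.71%. Both shares are near the 4.99% of all genes in either direction. Wwp1, Tfeb and Sqstm1 were all lower in LD, and 2.83% of all genes passed as lower. Of 9 mitophagy genes Bnip3l (-0.43 ± 0.08) and Pink1 (-0.32 ± 0.07) passed as lower, and of 13 lysosome genes Gaa, which encodes acid alpha-glucosidase (137 and 247 CPM, -0.85 ± 0.09), Ctsd and Atp6v1h did. In the FoxO family and its upstream genes, Foxo4 passed as lower (121 and 159 CPM, -0.39 ± 0.06, edgeR adjusted p = 0.00129) and Irs1, an insulin receptor substrate, as higher (87.0 and 41.3 CPM, 1.08 ± 0.23, adjusted p = 0.0226). Leaving out 1 library gave 0 to 4 calls for the ubiquitin list, 1 to 4 for autophagy, 1 to 2 for mitophagy, 2 to 3 for lysosome genes, 0 to 2 for ligases and 1 to 2 for the FoxO family. Without 6M_UT replicate 1 or 3 there was 1 call each in the ubiquitin, autophagy, mitophagy and FoxO family lists, and without LD replicate 5 there were 0, 1, 1 and 1. The ligase call was lost without 6M_UT replicate 1 or 3, 6M_PoW replicate 1, any 1 LD replicate, 9M_UT replicate 3 or 9M_PoW+DT replicate 2.

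Against trained muscle, Foxo4 (121 CPM in LD and 143 CPM in trained muscle, edgeR adjusted p = 0.0413), Tfeb (48.8 and 66.5 CPM, adjusted p = 0.0131), the autophagy receptor gene Tax1bp1, Gaa (137 and 217 CPM) and Ctsd were lower in the LD libraries, and no ligase, ubiquitin or mitophagy gene passed. Leaving out 1 library gave 0 to 2 calls for the FoxO family, 0 to 2 for autophagy and 1 to 2 for lysosome genes, with no autophagy call without 6M_PoW replicate 3 or LD replicate 5. Other FoxO targets had none that passed in either LD comparison, with medians of -0.31 against untrained and -0.28 against trained muscle, which were -0.12 without 6M_UT replicate 1 and -0.15 without 6M_PoW replicate 3. Glucocorticoid response genes had medians of -0.71 and 0.15, again with none that passed, and without 6M_UT replicate 1 the median against untrained muscle was 0.091. Without LD replicate 4 the median against trained muscle was -0.19. Denervation response genes, which rise with loss of nerve contact, had medians of 0.51 and 0.085 over 8 tested, with none that passed and Myog at 3.86 CPM in LD, 2.75 CPM in trained muscle and 2.20 CPM in untrained muscle. Jund passed as higher among 20 immediate early genes, at 71.7 CPM in LD against 53.0 CPM in untrained libraries, which is 1 of 20, near the 4.99% of all genes. Its call was lost without 6M_UT replicate 3 or LD replicate 6 (edgeR adjusted p = 0.0976 and 0.121).

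**Figure D5:**
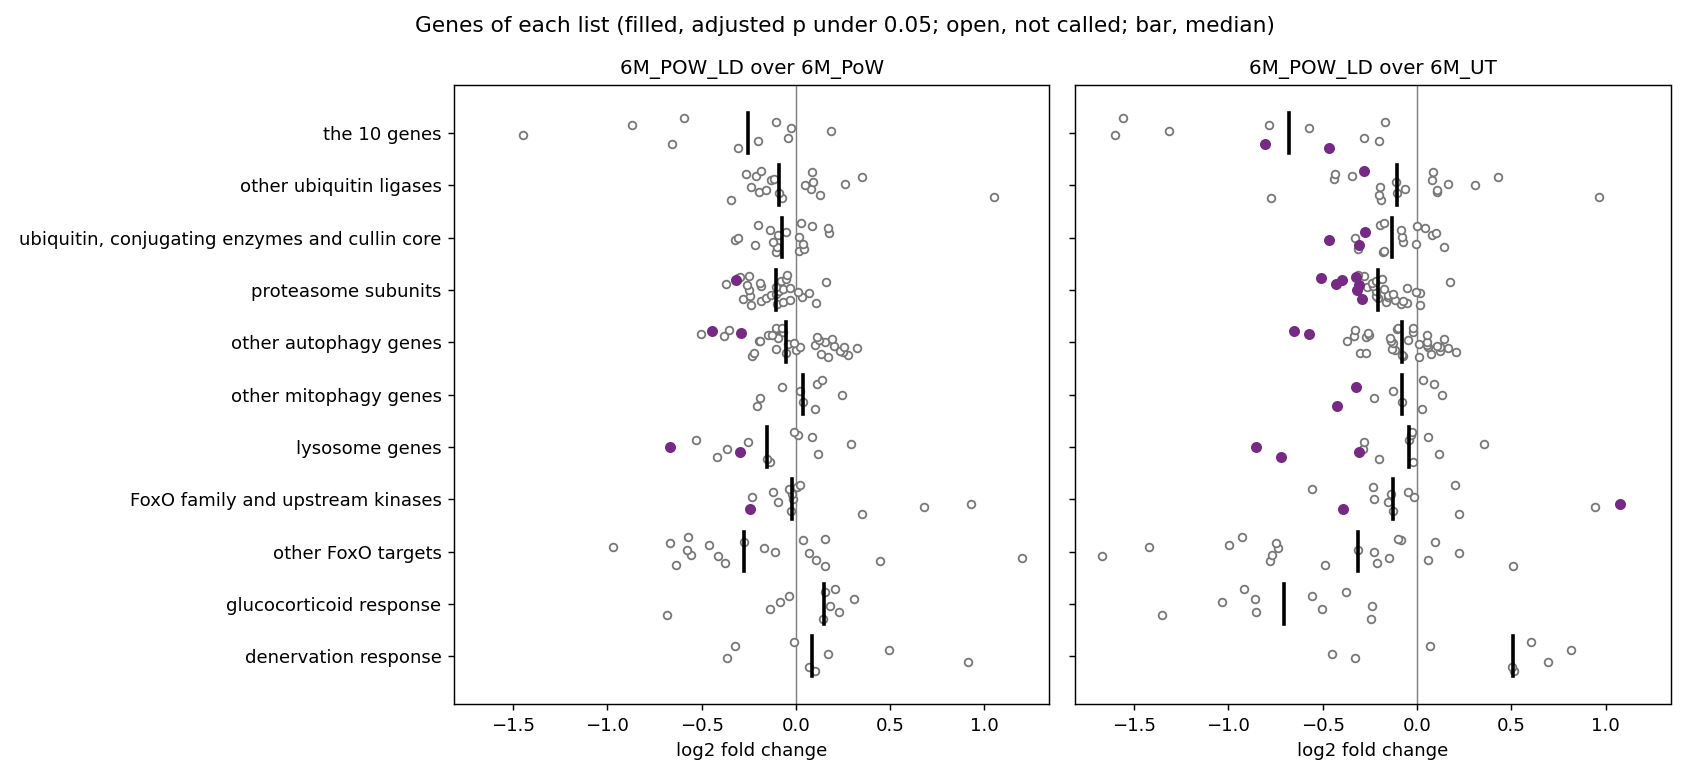
Log2 fold change (horizontal axis) of each gene of 11 lists, the 10 genes among them, in the LD libraries over 6M_PoW (left) and over 6M_UT (right); filled points have an adjusted p under 0.05 and bars are list medians. Proteasome subunits lie mostly below 0 in both panels, with 1 gene called on the left and 7 on the right, and glucocorticoid response genes have medians of 0.15 and -0.71, where the second was 0.091 without 6M_UT replicate 1.

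Markers of other cell types also differed in the LD libraries, and in bulk tissue fewer cells of a type and less RNA per cell cannot be told apart. Against untrained muscle 4.99% of all genes passed. All 5 markers of fibro-adipogenic progenitors lay above 0 there with 3 passing, summing to 363 to 443 CPM in the LD libraries and 276 to 294 CPM in untrained muscle. Without 6M_UT replicate 1 or 2, 2 of these markers passed, and without replicate 3, 1 did. All 6 leukocyte markers lay above 0 with 1 passing (50.8 to 62.6 and 33.9 to 35.6 CPM), as did all 4 Schwann cell markers with none passing (60.2 to 155 and 43.6 to 53.0 CPM) and all 4 haemoglobin genes with none passing (499 to 3080 and 323 to 884 CPM). For Schwann cell markers LD replicate 5 alone stood at 155 CPM, with replicates 4 and 6 at 60.2 and 65.7 CPM. Trained libraries stood at 38.4 to 60.8 CPM. Without LD replicate 5 all 4 Schwann cell markers stayed above 0 against untrained muscle, with a median of 0.36 in place of 0.95. LD replicate 5 was also the lowest library for 5 of the genes followed here, and the calls of Bnip3 and Fbxo21 were lost without it. Of the LD libraries replicate 6 alone stood at 3080 CPM for haemoglobin, while replicates 4 and 5, at 499 and 686 CPM, lay inside the untrained range, and without replicate 6 all 4 haemoglobin genes lay below 0. Of 6 endothelial markers 5 lay above 0, of 5 adipocyte markers 1 (3 without LD replicate 4), and of 9 fibre markers 6. Of the fibre markers 2 passed as higher, and 1 passed without 6M_UT replicate 2 or 3. Against trained muscle none of these markers passed. In the training comparison all 6 leukocyte and all 5 progenitor markers and 5 of 6 endothelial markers lay above 0, none passing. In the detraining comparison 4 of 5 adipocyte markers lay above 0 and all 6 endothelial markers below 0 (4 without 9M_PoW+DT replicate 3), none passing. No marker stood at 0 in any library. The part of these cells in the results above was not tested.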

How the data were processed

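Total RNA from flash-frozen plantaris muscle was sequenced as 15 libraries. The deposited table holds expected counts per gene, made by the authors with STAR 2.7.3a, Partek and DESeq2 named for mm10, per the submitters' processing notes, which give no roles or order; neither strand use nor annotation is stated there. Values that were not whole were rounded, and no normalization was found in the values. Gene positions in the table matched GENCODE M21 for 99.0% of 19892 symbols.

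edgeR 4.0.16 in R 4.3.3 (TMM scaling, filterByExpr, robust quasi-likelihood test, Benjamini-Hochberg adjustment over all genes, threshold 0.05) was fitted to the 12 libraries without LD (14919 genes) for training, detraining, their difference, age and detrained against trained, and to all 15 (15181 genes) for LD. Standard errors were derived from the log2 fold change and its F. Levels are CPM on the TMM scale, with a prior count of 2 for log2 values. Relations between genes were tested by permutation. In data simulated for the training comparison, the test found 28 of 67 genes changed 1.5-fold, 61 of 67 changed 2-fold and 66 of 66 changed 4-fold. It also called 6 unchanged genes. Each simulated gene had the spread usual at its level, so the check does not cover genes of wider spread such as Trim63 and Foxo1. Alternatives were DESeq2 1.42.0, limma 3.58.1 voom, other scaling and filters, other sets of libraries and leaving out each library. Same-numbered replicates did not deviate together (correlations of deviations -0.29 to 0.215 over 18 pairs). The 10 genes and all lists (other ligases, ubiquitin, conjugating enzymes and cullin core, proteasome, FoxO family, FoxO targets, autophagy, mitophagy, lysosome, denervation, glucocorticoid, immediate early genes and cell type markers) were chosen with earlier results of these data known. Named genes were the 10 genes, the genes that passed in each list, the 2 of smallest p in a list without one, and the 2 genes most like each of the 10, of which 1 is not reported here; Myog, Zbtb16 and example genes of lists were named after their values were seen. Counting error only is covered by depth; the replicate number limits precision.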

Additional observations from a re-analysis of the deposited data

How the results depend on the processing

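No gene of the 10 passed in the training, detraining, difference, age or detrained against trained comparison under the alternatives tried, leaving out each library included. Against untrained muscle the LD libraries gave 0 to 3 called genes when 1 library was left out. Against trained muscle DESeq2 called 2 and a fit of the 9 libraries of 6 months called 1, against 0 as reported, and the cause was not tested. Over all genes these 2 settings called 661 of 12885 and 316 of 14850. With the replicate block the training comparison called 0 of the 10, with Trim63 at -1.02, and the block changed no call of the 10 genes; same-numbered replicates shared only a number, with 4 of 12 libraries closest to their own.

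Over all genes, DESeq2 called 112 for training, 28 for detraining, 109 for the difference, 53 for age, 343 for detrained against trained, 1164 for LD against untrained and 661 for LD against trained, where edgeR called 0, 3, 4, 2, 44, 757 and 365. Without a filter edgeR called 8 for training, 10 for the difference, 10 for age and 81 for detrained against trained. limma-voom called 0 in the first 4 of these comparisons and 24 in detrained against trained. With the block, edgeR called 1 for training, 2 for detraining, 5 for age and 19 for detrained against trained. Fits of 6 libraries alone called 4 for training and 18 for detraining, a fit of 15 called 4 for age and 67 for detrained against trained, and the LD libraries added to trained muscle gave 29 for training and 2 for the difference, against 1 when added to untrained muscle. With the 9-month groups exchanged the difference and age called 0.

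Log2 fold changes that changed sign are given by setting, and the cause was not tested. With RLE size factors, for the difference Fbxo21 stood at -0.0015. Without a filter on low counts, for training Fbxo30 stood at 0.0030 and for the difference Fbxo21 stood at -0.0061. With a stricter filter, for training Fbxo30 stood at 0.017 and for the difference Fbxo21 stood at -0.020. In DESeq2, for the difference Fbxo21 stood at -0.00011. In limma-voom, for training Fbxo32 stood at 0.039 and Fbxo30 at 0.011, for the difference Trim63 stood at -0.025 and Fbxo21 at -0.014, for age Fbxo32 stood at 0.050 and Trim63 at 0.021 and for detrained against trained Trim63 stood at -0.0044. In a fit of 15 libraries, for the difference Fbxo21 stood at -0.00092. With the LD libraries added to trained muscle, for training Gabarapl1 stood at -0.29 and for the difference Fbxo32 stood at 0.032. With the LD libraries added to untrained muscle, for training Fbxo32 stood at 0.44, Fbxo30 at 0.10, Fbxo21 at 0.20, Bnip3 at 0.055, Map1lc3b at 0.015, Foxo4 at 0.036, Tfeb at 0.084 and Gaa at 0.18 and for the difference Trim63 stood at -0.16 and Fbxo21 at -0.35. With the 9-month groups exchanged, as the treatment field has them, for the difference Fbxo32 stood at 0.82, Fbxo30 at 0.41, Bnip3 at 0.47, Map1lc3b at 0.28 and Gabarapl1 at 0.62 and for age Fbxo30 stood at -0.31, Map1lc3b at -0.16 and Gabarapl1 at -0.41.

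For training, leaving out 1 library in turn gave ranges of -0.56 to 0.31 for Fbxo32, -1.44 to 0.32 for Trim63, -0.10 to 0.10 for Fbxo30, -0.17 to 0.025 for Map1lc3b and -0.14 to 0.33 for Gabarapl1. For detraining, leaving out 1 library in turn gave ranges of -0.38 to 0.061 for Fbxo21, -0.13 to 0.090 for Fbxo31 and -0.30 to 0.18 for Foxo3. For the difference, leaving out 1 library in turn gave ranges of -0.87 to 0.89 for Trim63, -0.23 to 0.21 for Fbxo21 and -0.012 to 0.73 for Foxo3. For age, leaving out 1 library in turn gave ranges of -0.54 to 0.32 for Fbxo32, -0.84 to 0.90 for Trim63, -0.26 to 0.14 for Fbxo21, -0.14 to 0.014 for Fbxo31, -1.67 to 0.11 for Foxo1, -0.44 to 0.30 for Foxo3, -0.16 to 0.085 for Bnip3, -0.053 to 0.15 for Map1lc3b and -0.018 to 0.54 for Gabarapl1. For detrained against trained, leaving out 1 library in turn gave ranges of -0.45 to 0.51 for Trim63 and -0.28 to 0.075 for Fbxo21. For LD against untrained, leaving out 1 library in turn gave ranges of -1.74 to 0.037 for Foxo1. For LD against trained, leaving out 1 library in turn gave ranges of -0.083 to 0.032 for Fbxo31, -0.18 to 0.38 for Foxo1 and -0.17 to 0.095 for Foxo3.

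Each group had 3 libraries, which limits the precision, and each of the 10 genes had at least 270 counts in every library.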
